A study of Mus musculus with 4 samples.

Results

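The genes that encode collagen chains were read on 4 arrays, 1 each for control and Snai1 knockout mouse embryonic stem cells differentiated in culture or grown as tumours. The members were all genes whose platform symbol is Col, a number, the letter a and a number, taken from probe sets that name 1 gene. They were 42 of 18193 genes, covered by 82 probe sets, and no probe set naming several genes held a collagen chain. Col6a6 and Col28a1 were not analysed here. The control groups carried the genotype F/F, and the others were labelled Snai1 knockout. Embryoid bodies are stem cell aggregates, here begun as hanging drops and taken on day 5. Teratomas are mixed-tissue tumours, here grown under the skin of the hind limbs of 6-week-old male nude mice and taken at week 6, so that host stroma, vessels and blood cells of the same species can add to the RNA. Each of the 4 groups had 1 array, and whether a sample came from 1 tumour or several, or from 1 knockout clone or several, is not given in the sources used here. No difference below therefore has a replicate check, no test was possible, and no p-value is given.

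Collagens are secreted proteins whose chains wind into a rope-like helix, and most types need a fixed set of partner chains. Fibrillar collagens form the tensile fibres of connective tissue and are made mainly by mesenchymal cells. Basement membrane collagens form sheets under epithelia and around vessels, cartilage collagens fill the matrix of chondrocytes, and fibril-associated collagens coat fibres and link them to other matrix. Snai1 encodes a zinc-finger repressor known for its part in the change from epithelial to mesenchymal cells.

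Levels are RMA log2 values, on which a difference of 1 is 2-fold, and a floor was set on each array at the middle value of the probe sets that are not controls, from 4.71 to 5.08. A value below the floor was raised to it, so a difference with 1 array below is a bound, written "at least", and none is given where both arrays lay below. Levels are compared for 1 gene across arrays and never between genes, since probe sets differ in brightness. Snai1 itself read 4.78 in control and 3.45 in knockout embryoid bodies, 3.59 in the control teratoma and 3.44 in the knockout, with only the control embryoid body above its floor. The difference between the 3' and 5' Gapdh probe sets, a sign of RNA integrity, was 0.17 in control embryoid bodies, 0.10 in the knockout, 0.65 in the control teratoma and 0.40 in the knockout. For Actb it was 0.38, 0.31, 1.03 and 0.85 in the same order. The tissue labels were read against marker lists: of 5 neuron markers 3 were below the floor in each embryoid body array and 0 in each teratoma, and of 5 skeletal muscle markers 3 were below it in each embryoid body and 1 in each teratoma.

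Of the 42 chains, 25 were above the floor on all 4 arrays, 8 on some and 9 on none. The 9 were the cartilage chains Col10a1, Col11a2 and Col9a2, the kidney and lung basement membrane chains Col4a3 and Col4a4, the fibril-associated chains Col19a1 and Col20a1, the fibrillar chain Col24a1, and Col6a5. For these the arrays give no difference.

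Promoter sequences are shown for the chains whose knockout differences are described first, because these genes were lower together. The RefSeq promoter table (GRCm38.p6) held 36 windows for 33 of the 42 chains. Col1a1, Col2a1, Col4a3, Col5a2, Col9a3, Col12a1, Col14a1, Col22a1 and Col26a1 had no entry. The first set are the fibrillar chains Col3a1 (chr1:45311288-45311537, plus strand) and Col1a2 (chr6:4505368-4505617, plus strand) and the beaded filament chain Col6a3 (chr1:90843972-90844221, minus strand), which had the largest knockout differences in embryoid bodies among chains with an entry. Col8a1 (chr16:57754738-57754987, minus strand) is added as the chain that was over 2-fold lower in the knockout teratoma and has an E-box of the kind Snail factors bind. Each line gives the 250 bases before the annotated start on the gene's strand, with matches to the 4 motifs named after them in capitals.

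Col3a1: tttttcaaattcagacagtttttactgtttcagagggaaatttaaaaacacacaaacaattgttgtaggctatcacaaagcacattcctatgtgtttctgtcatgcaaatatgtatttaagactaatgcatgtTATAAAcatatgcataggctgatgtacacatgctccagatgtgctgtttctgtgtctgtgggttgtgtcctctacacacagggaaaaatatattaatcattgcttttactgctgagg

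Col1a2: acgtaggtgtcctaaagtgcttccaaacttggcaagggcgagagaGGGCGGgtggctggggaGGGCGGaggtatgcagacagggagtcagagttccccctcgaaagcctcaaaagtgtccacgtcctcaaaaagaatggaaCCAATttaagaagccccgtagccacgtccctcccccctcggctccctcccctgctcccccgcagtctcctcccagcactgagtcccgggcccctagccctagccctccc

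Col6a3: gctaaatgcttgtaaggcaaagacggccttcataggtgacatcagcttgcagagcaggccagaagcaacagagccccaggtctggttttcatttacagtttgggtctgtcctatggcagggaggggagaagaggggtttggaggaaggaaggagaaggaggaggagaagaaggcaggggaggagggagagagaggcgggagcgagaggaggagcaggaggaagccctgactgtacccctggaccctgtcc

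Col8a1: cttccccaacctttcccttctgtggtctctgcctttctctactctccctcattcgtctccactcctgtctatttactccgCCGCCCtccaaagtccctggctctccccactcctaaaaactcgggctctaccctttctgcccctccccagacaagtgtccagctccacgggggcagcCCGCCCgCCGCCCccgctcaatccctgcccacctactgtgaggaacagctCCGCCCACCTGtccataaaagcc

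The motifs were searched on both strands of windows of 300 bases, from 250 before the start to 50 after it. CAGGTG, the E-box, was in 5 of the 36 collagen windows (13.9%) and in 20.2% of all 32851 windows. Its genes were Col4a4, Col6a5, Col8a1, Col9a2 and Col16a1, and in Col8a1 it lies 18 bases before the start and shares 1 base with a GC box. TATAAA was in 5 windows (13.9%, against 13.6% of all), and CCAAT in 13 (36.1%, against 37.4%). GGGCGG, the GC box, was in 22 windows (61.1%, against 35.7%), of 21 genes, with overlapping windows of Col6a2 among them. The 250 bases before the start had a median of 59% G and C in collagen windows, against 52.4% in all windows. How much of the GC box share goes with this content was not tested. None of the 9 chains with an entry that were at least 2-fold lower in knockout embryoid bodies had the E-box letters in its window, which says nothing of binding elsewhere. The printed Col3a1 stretch has 35.2% G and C, below the tenth percentile of all windows at 38.8%, whereas Col1a2 has 62.0% and Col6a3 57.2%.

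Fibrillar collagens were the class with the largest differences in embryoid bodies without Snai1. Col3a1, the chain of the pliable collagen III fibres of embryonic and vascular connective tissue, read 13.02 in control and 7.24 in knockout embryoid bodies, and 13.40 in the control and 12.73 in the knockout teratoma. It was 55.1-fold lower in knockout embryoid bodies and 1.59-fold lower in the knockout teratoma, and in these bulk samples fewer cells of a type and less RNA per cell cannot be told apart. On this probe set knockout embryoid bodies were the only low array, and the other arrays lay within 0.67 of each other. The other Col3a1 probe set read 10.15, 4.55, 9.95 and 8.42 in the same order, the second value below the floor. It differed by -1.52 in teratomas. Col5a2, a chain of the collagen V that nucleates and limits fibre width, read 9.95, 5.03, 10.85 and 9.68 in the same order. This was 30.4-fold and 2.25-fold lower.

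The chains of collagen I, the main fibre of skin, tendon and bone, were lower as a pair. Col1a1 read 9.57 in control and 6.62 in knockout embryoid bodies, then 10.51 in the control teratoma and 9.31 in the knockout. Its partner Col1a2 read 12.06 and 8.35 in embryoid bodies and 13.28 and 12.44 in teratomas. In embryoid bodies Col1a1 was 7.77-fold and Col1a2 13.1-fold lower, and in the teratoma 2.30-fold and 1.79-fold. Col5a1, the main collagen V chain, read 9.63 and 7.61 in embryoid bodies and 8.78 and 7.47 in teratomas, and was 4.05-fold and 2.49-fold lower. Both knockout arrays were below their control for each of these chains. Col27a1, a fibrillar chain of developing cartilage, differed by -0.14 in embryoid bodies and -0.60 in teratomas. Its other probe set differed by -0.77 and -0.26 in the same order. Col5a3, a minor collagen V chain, was below the floor in both embryoid bodies and the control teratoma and was at least 1.41-fold higher in the knockout teratoma, at 5.58.

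**Figure D1:**
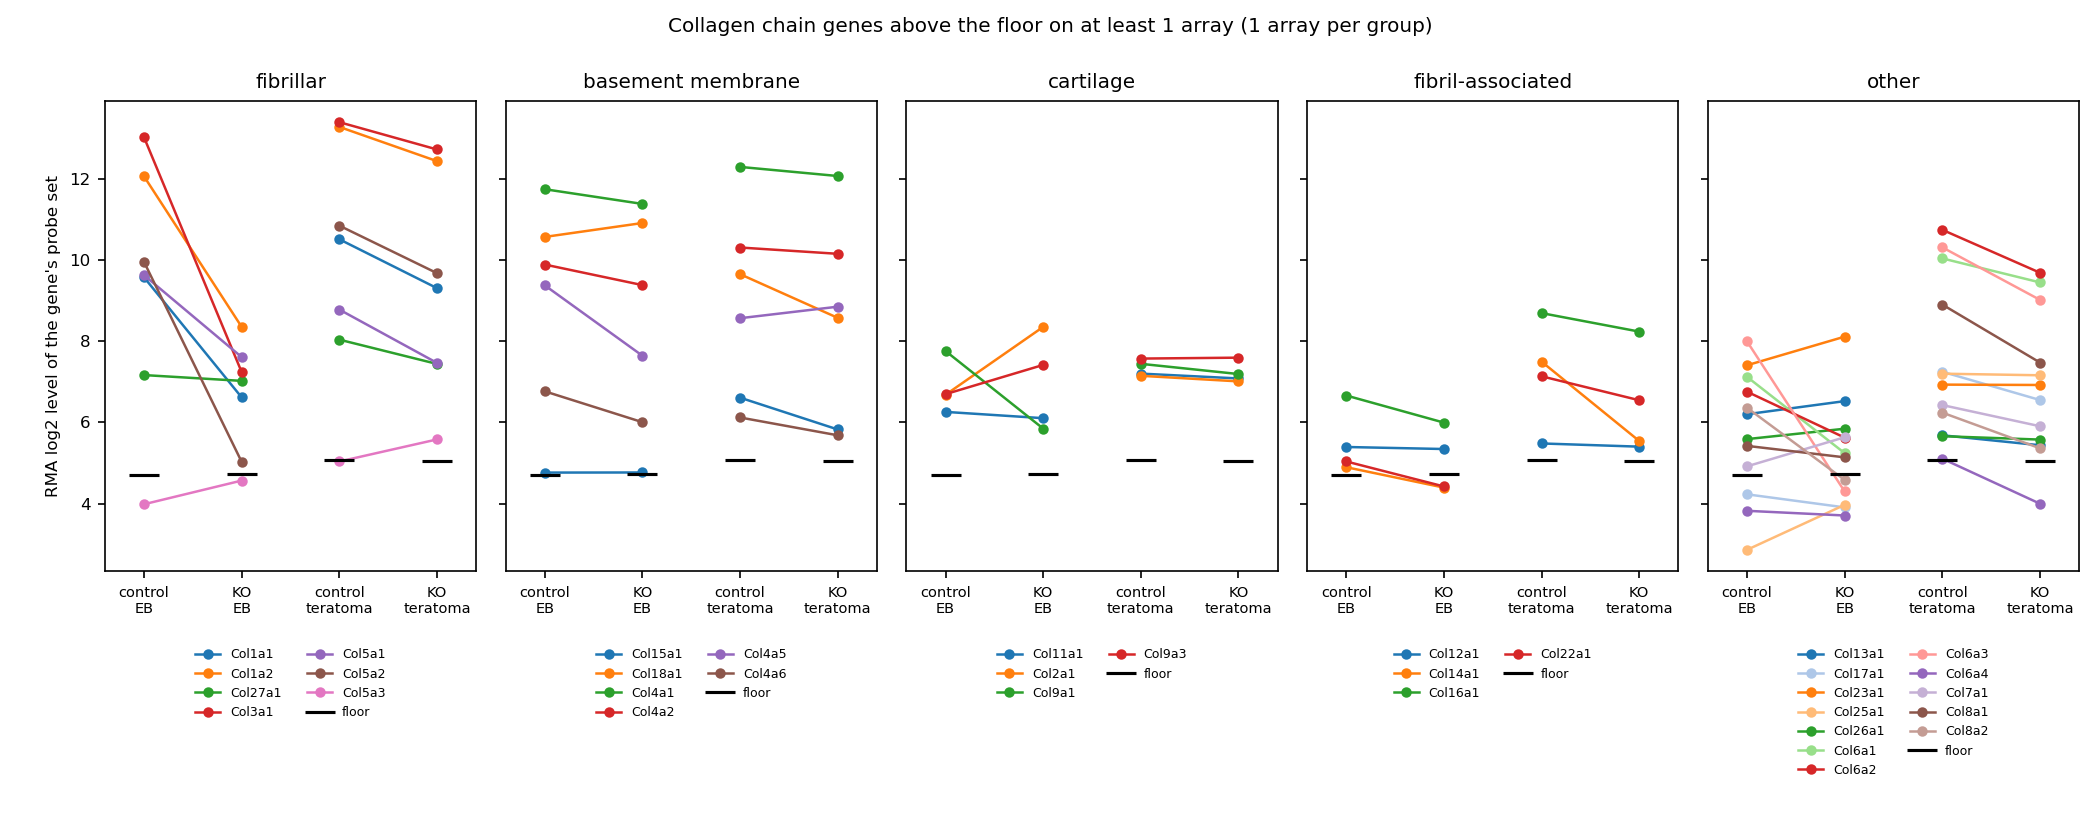
RMA log2 level of the 33 collagen chains above the floor on at least 1 array, by class, with 1 point per array, lines joining control and knockout of 1 tissue and black bars at each array's floor. Lines compare a gene with itself only. Col3a1 goes from 13.02 to 7.24 in embryoid bodies and from 13.40 to 12.73 in teratomas, while Col4a1 stays between 11.38 and 12.30 on all arrays.

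The count over all chains was set against all genes measured in the same way. In embryoid bodies 29 chains were measured, 4 of them only as bounds. Of the 29, 11 were at least 2-fold lower (37.9%), where 3.98% of 12282 genes were, and 1 was at least 2-fold higher (3.45%), where 2.18% of genes were. At 8-fold, 4 chains were lower (13.8%) where 0.342% of genes were: Col3a1, Col5a2, Col1a2 and, as a bound, Col6a3. Of the 6 fibrillar chains measured, 5 were at least 2-fold lower and the median difference was -3.33, against -0.36 over all 29 chains and 0.03 over all genes. This class leaves out Col2a1 and Col11a1, which also form fibres but were classed under cartilage. They differed by 1.67 and -0.15, so the fibrillar count and median depend on that choice. Among all genes, Col3a1 and Col5a2 stood at ranks 3 and 4 counted from the lowest, and 5 of the 50 lowest genes were collagen chains.

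Markers of the cells that make collagen differed along with the chains, and their part in the result was not tested. Of 10 mesenchyme and fibroblast markers, 9 were measured in embryoid bodies and 6 were at least 2-fold lower, with 0 higher. Lum, Postn and Dcn, matrix genes of fibroblasts, differed by -6.36, -5.94 and -4.41, and the growth factor receptor genes Pdgfra and Pdgfrb by -1.74 and -1.92. Twist2, a regulator gene, read 8.49 in control and 5.88 in knockout embryoid bodies and differed by -2.61. The other measured markers were above 0. Prrx1 differed by 0.76, the regulator gene Twist1, read at 8.05 and 8.37, by 0.32, and Thy1 by at least 0.10. The summed linear level of the list was 9853 in control and 1054 in knockout embryoid bodies, with Thy1 and Fap below the floor in the control and Fap in the knockout. The brightest probe sets weigh most in such a sum, here those of Postn and Lum, at 11.85 and 11.65 in the control. The median difference of the 9 measured markers was -1.92. In teratomas the sum was 9608 in the control and 7043 in the knockout, 2 of 10 markers were lower and 1, Thy1, higher, and Twist2 and Fap were below the floor in the knockout.

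Collagen VI, a beaded filament around cells in muscle, skin and fat, was also lower as a set in embryoid bodies. Col6a3, the largest of its chains, read 8.0 in the control and 4.30, below the floor, in knockout embryoid bodies, which is at least 9.62-fold lower. Col6a1 read 7.12 and 5.24, or 3.68-fold lower, and Col6a2 read 6.76 and 5.63, or 2.19-fold lower. A further Col6a2 probe set was at -0.33. In teratomas Col6a1, Col6a2 and Col6a3 read 10.04, 10.75 and 10.31 in the control and 9.45, 9.69 and 9.02 in the knockout. Col6a2 and Col6a3 were 2.08-fold and 2.45-fold lower there, and Col6a1 was 1.51-fold lower. Under a floor at the 65th percentile the embryoid body differences of Col6a1 and Col6a2 became bounds, of at least -0.88 and at least -0.51, which no longer show 2-fold, and with the mean of probe sets Col6a2 differed by -0.73. Col6a4 was above the floor only in the control teratoma, at 5.11 just over its floor of 5.08.

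On the probe sets used, each basement membrane chain differed by less in embryoid bodies than the 5 lower fibrillar chains. The other Col5a1 probe sets, at -1.41 and -0.93, differed by less than Col4a5 at -1.73. In teratomas Col18a1, at -1.08, differed by more than Col3a1 and Col1a2 on the probe sets used, and Col15a1, at -0.78, by more than Col3a1. Col4a1 and Col4a2, the chains of the collagen IV network found under nearly all epithelia and vessels, read 11.75 and 9.89 in control and 11.38 and 9.38 in knockout embryoid bodies. They read 12.30 and 10.31 in control and 12.07 and 10.16 in knockout teratomas, so that no difference exceeded 1.42-fold. In the promoter table the starts of Col4a1 and Col4a2 lie 21 bases apart on opposite strands, with 78 bases of their windows shared. Col4a5, a chain of the collagen IV of kidney, lung and smooth muscle, read 9.38 in control and 7.64 in knockout embryoid bodies, 3.33-fold lower, and 8.57 and 8.85 in control and knockout teratomas. A further Col4a5 probe set was at -0.96 in the former tissue. Its neighbour Col4a6, whose start lies 1343 bases away on the other strand, read 6.77 and 6.01 in embryoid bodies and 6.12 and 5.68 in teratomas. Its differences were -0.76 and -0.44, although a further probe set was at -1.04 in embryoid bodies.

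Col15a1 and Col18a1 encode the collagens of the basement membrane zone that end in fragments active on vessels. Col18a1 read 10.57 in control and 10.91 in knockout embryoid bodies, then 9.65 in the control teratoma and 8.58 in the knockout, a difference of 0.34 in the former and 2.11-fold lower in the latter. Its other probe set, of shared sequence, differed by -0.09 and -0.56, and RefSeq lists 2 starts for the gene. Col15a1 was just above the floor in both embryoid bodies, at 4.76 and 4.77, and read 6.61 and 5.83 in control and knockout teratomas, a difference of -0.78. Of the 6 basement membrane chains measured, 1 was at least 2-fold lower in embryoid bodies (Col4a5) and 1 in teratomas (Col18a1), with medians of -0.43 and -0.33.

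Cartilage chains did not go one way in embryoid bodies. Col2a1, the main fibre of cartilage, which early embryos also make in notochord and neural tissue, read 6.68 in control and 8.35 in knockout embryoid bodies, 3.19-fold higher. It was the only chain at least 2-fold higher in the knockout in either tissue, and it read 7.15 and 7.01 in control and knockout teratomas. It has 1 probe set, of shared sequence, so no second reading of it exists. Col9a1, which coats cartilage fibres, went the other way, at 7.76 and 5.85, or 3.76-fold lower. A further probe set was at -0.37, and RefSeq lists 2 starts for Col9a1, with the transcripts read by each probe set not given in the sources used here. Col9a3, a partner chain of Col9a1, differed by 0.72, and Col11a1, a partner of Col2a1 in cartilage fibres, by -0.15. In teratomas the 4 cartilage chains measured differed by -0.25 to 0.02 on the probe sets used. Other probe sets differed there by 0.50 for Col11a1, by 0.40 for Col9a1 and by at least 0.29 for Col9a3.

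Most cartilage markers were low on these arrays. Of 9 markers, 6 were below the floor in control embryoid bodies, 5 in the knockout, 8 in the control teratoma and 7 in the knockout, among them Acan, Matn1, Matn3 and Comp, matrix genes of chondrocytes, on all 4 arrays. By contrast, Hapln1 read 7.49 in control and 6.86 in knockout embryoid bodies, and was below the floor in teratomas, at 3.72 and 4.04. Sox9, a regulator of cartilage that other tissues also express, read 6.19 and 6.53 in embryoid bodies and 8.24 and 8.57 in teratomas. The summed linear level of the list was 385 in the control and 344 in the knockout for embryoid bodies, and 434 and 547 for teratomas. The label cartilage therefore names a class of chains here and not a tissue that most of the markers show.

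Of 4 fibril-associated chains measured in each tissue, 0 were at least 2-fold lower in embryoid bodies and 1 in teratomas, with medians of -0.24 and -0.52. Col14a1, which binds collagen fibres in dense connective tissue, read 7.5 in the control and 5.54 in the knockout teratoma, 3.88-fold lower and the largest collagen difference in that tissue. Its probe set has a shared sequence. The next probe set read 5.53 and 4.23, the second value below the floor, and was at least 1.40-fold lower. Col14a1 was close to the floor in control embryoid bodies, at 4.90, and below it in the knockout. Col16a1 differed by -0.67 and -0.46 in embryoid bodies and teratomas, Col22a1, a chain of tissue junctions, by at least -0.31 and by -0.59, and Col12a1 by -0.05 and -0.08. The second Col12a1 probe set, above the floor in teratomas only, differed by -0.84.

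The remaining chains form networks or span membranes. Col8a1 and Col8a2 form the network collagen VIII of vessel walls and cornea. Col8a1 read 5.42 and 5.14 in embryoid bodies, 8.90 in the control teratoma and 7.48 in the knockout teratoma, 2.69-fold lower in the latter. Col8a2 read 6.36 in control and 4.58, below the floor, in knockout embryoid bodies, at least 3.09-fold lower, and 6.24 and 5.36 in teratomas, 1.84-fold lower. A higher floor, at the 65th percentile, left a Col8a2 bound of -0.12 in embryoid bodies.

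Col7a1, the anchoring fibril of skin, and Col17a1, the hemidesmosome collagen of basal keratinocytes, are epithelial. Col7a1 read 4.92 and 5.63 in embryoid bodies and 6.43 and 5.91 in teratomas, differing by 0.72 and -0.52. Col17a1 was below the floor in embryoid bodies and read 7.25 and 6.55 in control and knockout teratomas. Of 6 markers of basal epidermis, 5 were measured in embryoid bodies and 6 in teratomas, and 0 were shown to be 2-fold apart, although Krt5 in embryoid bodies is a bound, at least 1.56-fold lower. The membrane collagens Col13a1 and Col23a1 differed by 0.32 and 0.70 in embryoid bodies and by -0.25 and -0.01 in teratomas, and each of the 3 Col23a1 probe sets was above 0 in embryoid bodies. On the probe set used, Col25a1, a membrane collagen of neurons and developing muscle, was measured only in teratomas, at 7.20 and 7.16. Its other probe set was above the floor only in embryoid bodies, just over it at 4.87 and 4.86. Col26a1 differed by 0.26 and -0.08.

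In teratomas nearly all differences were of 1 sign, and the largest were smaller than those in embryoid bodies. Of 33 chains measured, 2 of them as bounds, 30 were below 0, where 42.2% of 12197 genes were. With the mean of a gene's probe sets, 25 of 29 chains were below 0. At least 2-fold lower were 8 chains (24.2%), where 1.07% of genes were. None was at least 2-fold higher, where 3.25% of genes were. The median over the chains was -0.52, against 0.06 over all genes. The 8 were Col14a1, Col8a1, Col5a1, Col6a3, Col1a1, Col5a2, Col18a1 and Col6a2. For Col3a1 and Col1a2 the reading depended on the probe set. The probe sets used, which are the brightest of these genes and have a shared sequence, differed by -0.67 and -0.84. The others, at 9.95 and 11.78 in the control teratoma, differed by -1.52 and -1.43.

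**Figure D2:**
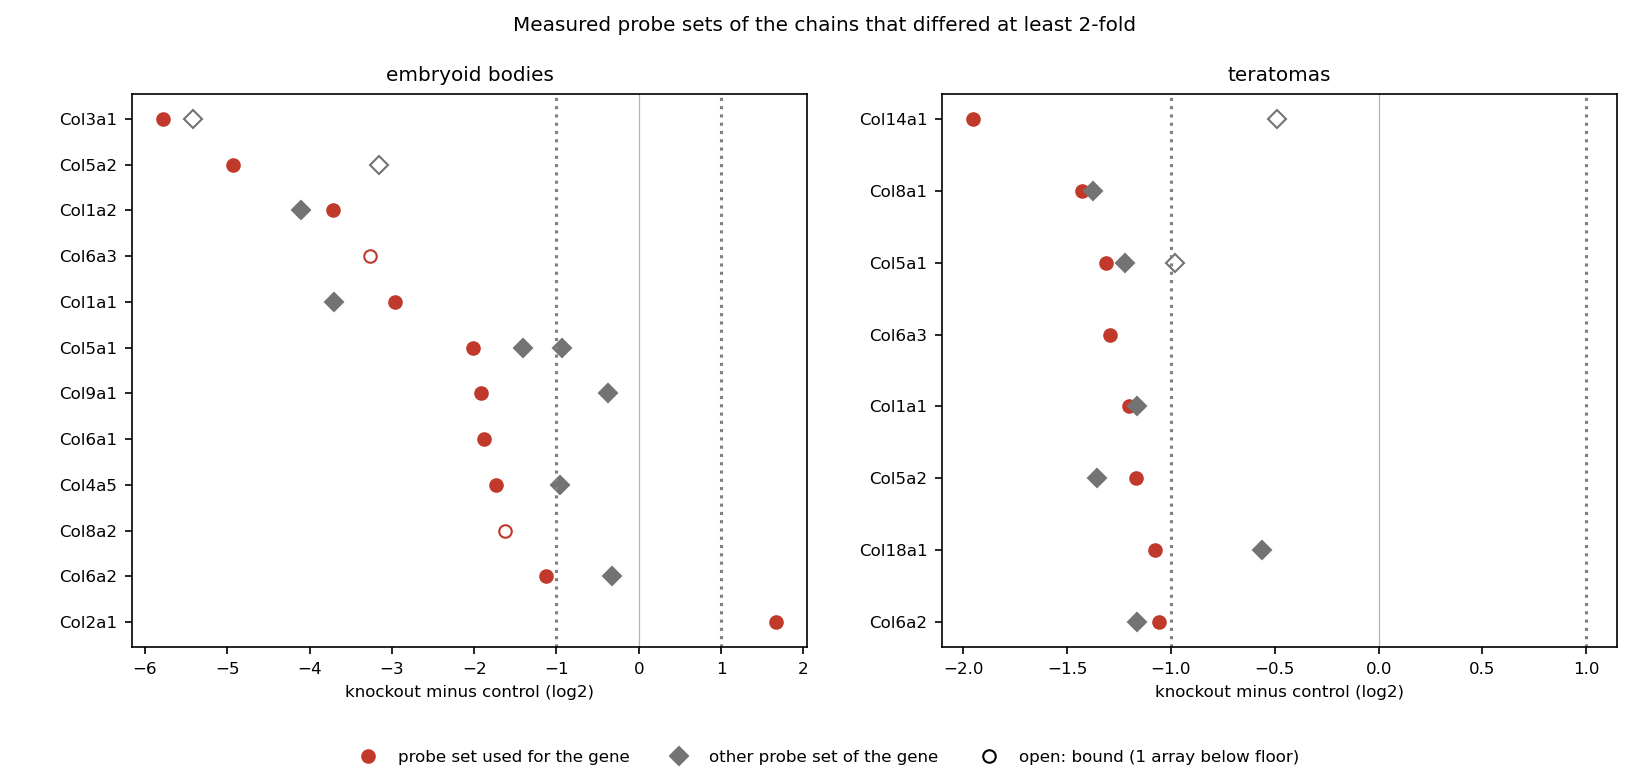
Difference between knockout and control (log2) for every measured probe set of the chains at least 2-fold apart, in embryoid bodies (left) and teratomas (right). Red circles are the probe sets used for the gene, grey diamonds its other probe sets, and open symbols are bounds. Grey and red symbols share their sign in 8 of 8 chains in embryoid bodies and 7 of 7 in teratomas, and every probe set passed 2-fold for 4 chains in each tissue.

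Probe sets of a gene share the RNA and the array, so their spread leaves out any variation between cultures or tumours. The pooled SD between probe sets measured on both arrays was 0.46 over 13 chains in embryoid bodies and 0.31 over 17 chains in teratomas.

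At least 2-fold lower in both tissues were 5 chains: Col1a1, Col5a1, Col5a2, Col6a2 and Col6a3. They are 45.5% of the 11 in embryoid bodies and 62.5% of the 8 in teratomas. Over all genes, 26 were lower in both, which is 5.32% of the 489 in embryoid bodies and 19.8% of the 131 in teratomas. Of the 29 chains measured in both tissues, 20 were below 0 in both, 1 was above 0 in both, Col9a3, and 8 had opposite signs. Over all measured genes, 46.6% were below 0 in embryoid bodies and 42.2% in teratomas. The share of all genes below 0 in both was not counted. These tissue comparisons share no array.

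**Figure D3:**
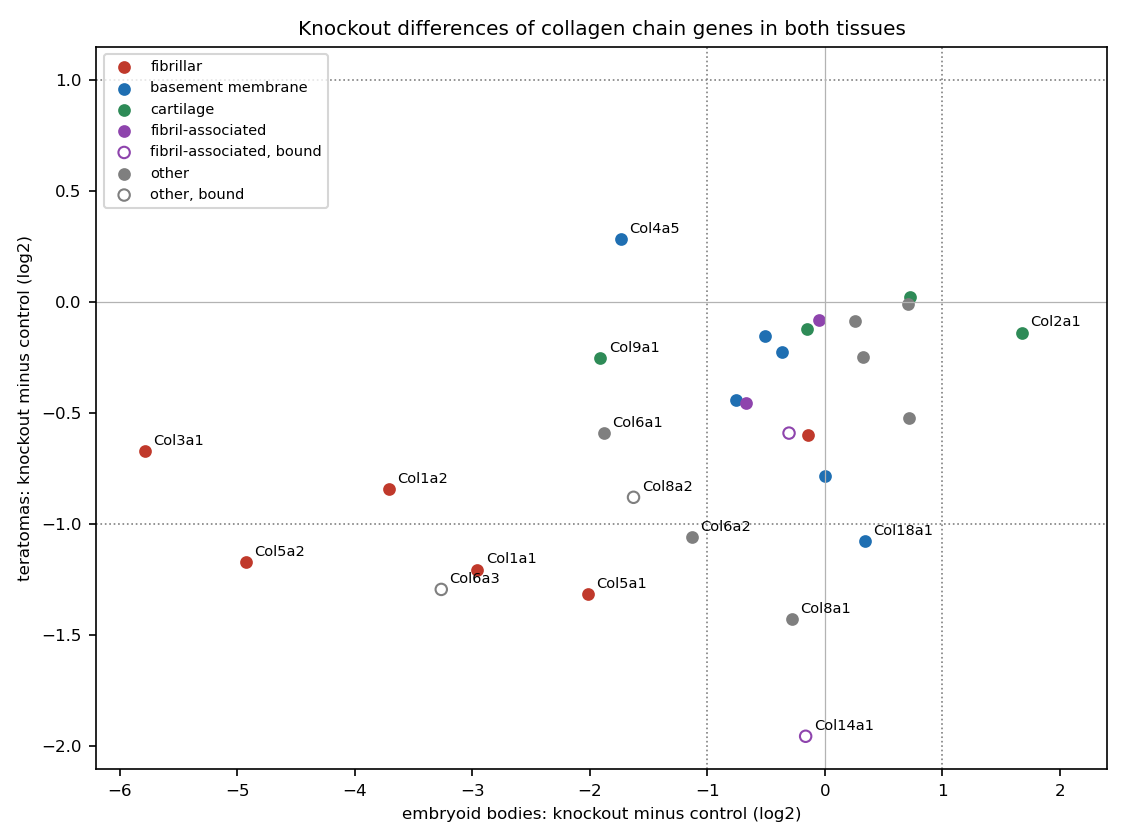
Knockout minus control difference (log2) of the 29 collagen chains measured in both tissues, embryoid bodies on the horizontal and teratomas on the vertical axis, coloured by class. Open symbols are bounds and dotted lines mark 2-fold. Col3a1, Col5a2 and Col1a2 lie far to the left, at -5.79, -4.93 and -3.71, and no chain lies above 0.28 on the vertical axis.

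Neighbouring collagen genes were set side by side through the RefSeq gene order. Col3a1 and Col5a2 are next to each other and differed by -5.79 and -4.93 in embryoid bodies and by -0.67 and -1.17 in teratomas. Col6a1 and Col6a2 differed by -1.88 and -1.13, and then by -0.59 and -1.06. In contrast, Col9a1 differed by -1.91 in embryoid bodies while its neighbour Col19a1 was below the floor on all arrays.

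Endothelial and extraembryonic endoderm cells also make basement membrane. Of 6 endothelial markers, 5 were at least 2-fold lower in knockout embryoid bodies and 0 in the knockout teratoma, with sums of 1458 in control embryoid bodies, 534 in the knockout, and 1250 and 1023 in the teratomas. Only Tek, in the knockout teratoma, was below the floor. Of 10 parietal and visceral endoderm markers, 2 were lower and 1, Sox17, higher in knockout embryoid bodies, with sums of 23929 and 11279 and none below the floor. In teratomas 3 of 9 measured were lower and 1 higher, and 7 were below 0, while the sums, 7769 and 10108, went the other way, with Ttr at 9.19 and 11.74. Gata4 was below the floor in the control, and Gata4, Gata6 and Lama1 were below it in the knockout. Of the 4 bone markers on the array, Sp7, Ibsp and Dmp1 were below the floor on all arrays. Of the 4 kidney markers on the array, Nphs1, Wt1 and Umod were below it on all arrays, as were Col4a3 and Col4a4, while Lrp2 read 6.06 in control embryoid bodies and was at least 2.51-fold lower in the knockout. Of 5 neuron markers, 3 were at least 2-fold higher in the knockout teratoma, where the sum was 11148 against 7464 in the control.

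Of the genes that fold and export collagen, some were lower in knockout embryoid bodies, none by more than 2.68-fold. Of 22 genes on the list, 21 were on the array and measured, and 7 were at least 2-fold lower with 0 higher, around a median of -0.78. Creb3l1, a regulator of collagen secretion in bone, read 8.66 in control and 7.23 in knockout embryoid bodies, 2.68-fold lower. The prolyl hydroxylase gene P3h1 was 2.36-fold lower, the coat gene Sec24d, which serves export of large cargo, 2.25-fold, and the prolyl isomerase gene Fkbp14 2.23-fold. Serpinh1, the collagen chaperone, was 1.94-fold lower, at 11.70 and 10.74. Some other genes of the same list differed little, P4hb by 0.13 and Ppib by -0.12. The prolyl hydroxylase genes P4ha1 and P3h2 differed by 0.07 and 0.21, and Colgalt1 by 0.10. In teratomas 0 of 21 were at least 2-fold apart and the median was 0.02, with Serpinh1 at -0.60 and P4ha1 at 0.56.

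Outside the cell, Pcolce, which speeds removal of the collagen propeptide, read 8.59 and 6.19 in embryoid bodies and 8.10 and 6.84 in teratomas, 5.28-fold and 2.39-fold lower. It was the only 1 of 4 measured propeptide processing genes at least 2-fold apart, and the protease gene Bmp1 differed by 0.13 and -0.25. Among crosslinking oxidases, Loxl1 read 8.81 and 5.73 in embryoid bodies and 8.31 and 6.93 in teratomas, 8.41-fold and 2.60-fold lower. Lox differed by -0.22 in embryoid bodies and was 2.58-fold lower in the knockout teratoma, at 7.12 against 8.49. None of the 5 collagen receptors measured was 2-fold apart. Ddr2, a receptor for fibrillar collagen, came nearest, at -0.97 in teratomas, whereas Itgb1, the shared integrin chain, differed by 0.09 and -0.46.

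**Figure D4:**
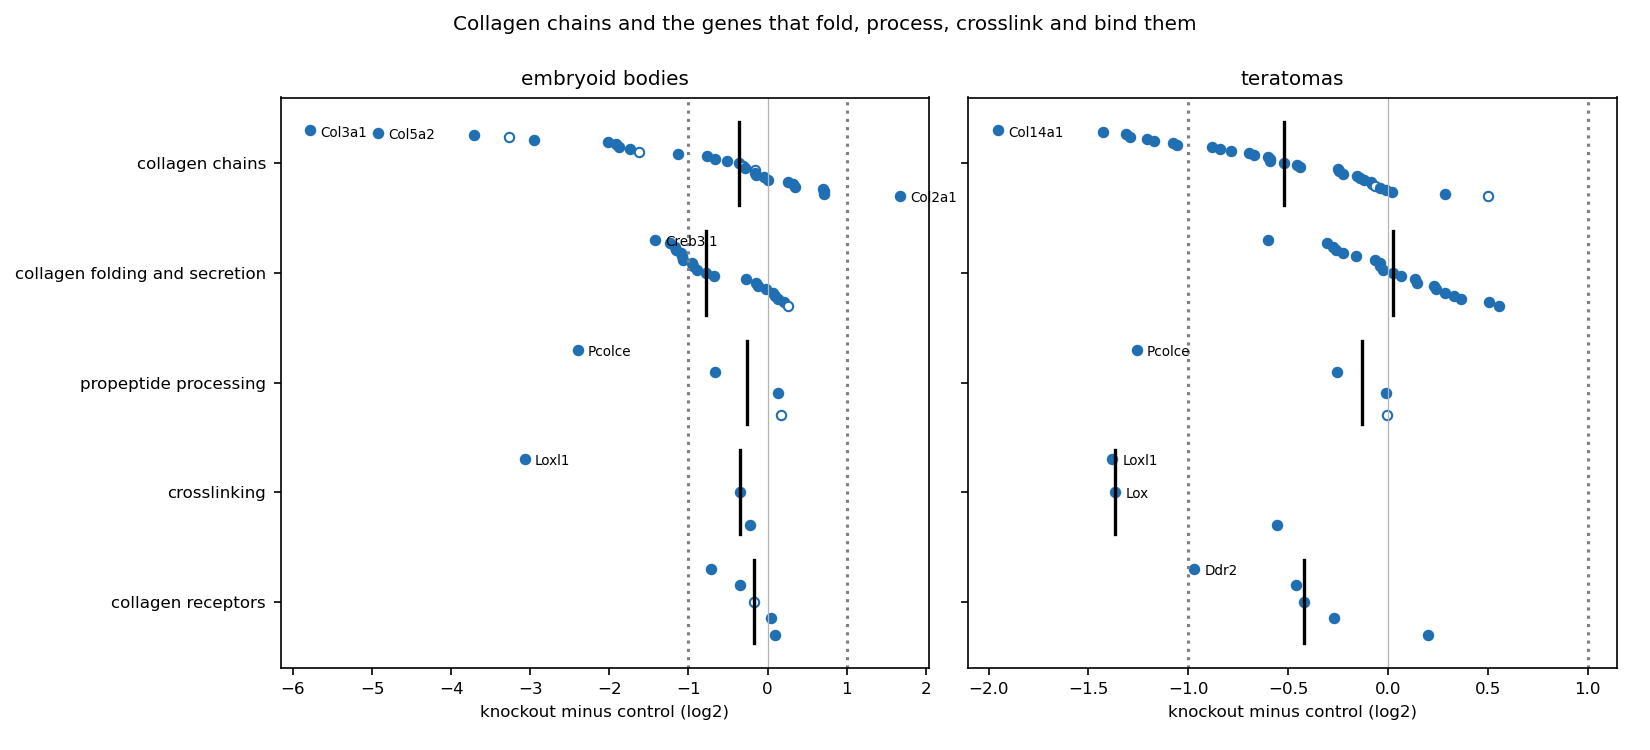
Knockout minus control difference (log2) of each measured collagen chain and of each measured gene of the folding, propeptide processing, crosslinking and receptor lists, in embryoid bodies (left) and teratomas (right). Points are genes, open points are bounds, black bars are medians and dotted lines mark 2-fold; the panels differ in scale. The folding list has a median of -0.78 in embryoid bodies and 0.02 in teratomas, and Pcolce and Loxl1 lie beyond 2-fold in both.

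Setting the tissues side by side within a genotype shows where each level lay. Tissue, time, host, RNA extraction and the Gapdh 3' to 5' difference all change together here, so they cannot be told apart. In control cells, 32 chains were measured and 12 (37.5%) were at least 2-fold higher in the teratoma, where 16.2% of 12956 genes were. None was at least 2-fold lower, where 19% of genes were, but with arrays centred on their medians, which moves the median of all genes from -0.18 to -0.55, the counts were 11 higher and 4 lower (Col18a1, Col4a5, Col4a6 and Col5a1). Col6a2 was 15.9-fold, Col8a1 11.2-fold, Col6a1 7.56-fold and Col6a3 4.98-fold higher. Col14a1 was 6.07-fold higher, Col22a1 4.28-fold and Col16a1 4.09-fold, while Col17a1 was at least 5.81-fold higher and Col25a1 at least 5.62-fold. Other probe sets gave less for some of these, with Col22a1 at -0.03 on a probe set above the floor on all 4 arrays and Col14a1 at least 0.82. The other Col25a1 probe set read 4.87 in control embryoid bodies and 4.76, below the floor, in the control teratoma. Without shared-sequence probe sets the count was 8, with Col6a2, Col14a1, Col16a1, Col17a1 and Col22a1 no longer in it and Col12a1 added. Col15a1, Col7a1 and Col1a2 were 3.60-fold, 2.85-fold and 2.33-fold higher. Col3a1, by comparison, was 1.30-fold higher.

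In knockout cells the fibrillar chains of collagens I and III and Col5a2 were among those furthest apart, with collagen VI. Both comparisons of tissues share their arrays with the knockout comparisons above, so their values rearrange the same levels. Of 32 chains measured, 15 (46.9%) were at least 2-fold higher in the teratoma, where 19.8% of 12936 genes were, and 4 (12.5%) at least 2-fold lower, where 19.8% of genes were. Col3a1 was 44.9-fold higher, Col5a2 25.1-fold, Col1a2 17-fold and Col1a1 6.46-fold, but Col5a1 differed by -0.14. The other Col5a1 probe sets differed by -1.05 and by at least -1.31. Col6a3 was at least 19.5-fold, Col6a1 18.5-fold and Col6a2 16.7-fold higher. Col18a1 was 5.05-fold lower, Col2a1 2.54-fold, Col23a1 2.28-fold and Col13a1 2.12-fold lower. On the probe sets used, the knockout teratoma lay within 0.38 of control embryoid bodies for 4 fibrillar chains. Col1a1 read 9.31 against 9.57, Col3a1 12.73 against 13.02, Col1a2 12.44 against 12.06 and Col5a2 9.68 against 9.95. Col5a1 lay further apart, at 7.47 against 9.63. The closeness depended on the probe set. On the other measured probe sets Col3a1 read 8.42 against 10.15 and Col1a1 8.08 against 8.77. Col1a2 read 10.35 against 10.64 there, and Col5a2 8.18 against 7.89.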

How the data were processed

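RNA of 4 samples was hybridised to Affymetrix mouse arrays, 1 array per group. The values the authors deposited are on a log2 scale, 1 per probe set and array, from affy and RMA per the submitters' processing notes. RMA subtracts background, matches the arrays' distributions and combines the probes of a set, which can compress differences at low levels. Tool versions, and whether all arrays went through RMA as 1 batch, were not given in the sources used here. RNA came from columns for embryoid bodies and from Trizol for teratomas, per the labels' protocols.

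The table held 45101 probe sets, 64 of them controls, and 34945 named 1 gene. A gene with several probe sets was read from the one whose mean level was highest. Values were floored at the array median of non-control probe sets, and a log2 difference of 1 or more was counted. All members may be named, with up to 4 genes of the largest difference per list and comparison as well; P4hb, Ppib and the marker genes named were chosen after their values were seen. Summed linear levels add the antilog of log2 values, so the brightest probe sets weigh most in them. Probe sets with the suffix _x_at, _s_at or _a_at are called of shared sequence. The sharing can be with other transcripts of the same gene, as for _a_at, or with other genes. The probe sets used for Col1a2, Col2a1, Col3a1 and Col14a1 carry _a_at. Promoters came from RefSeq tables, and Python 3.11.15 with pandas 2.3.3 was used. Alternatives were the mean of a gene's probe sets, no shared-sequence probe sets, other floors and thresholds, quantile normalization and centring on array medians. The code was tested on simulated data. The members and lists were chosen with earlier results of these data known. The number of arrays limits the precision.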

Additional observations from a re-analysis of the deposited data

Results flagged for a closer look

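In all, 8 chains were measured on all 4 arrays and had knockout differences of opposite sign in the 2 tissues, each resting on 1 array per group, so the difference between tissues was not tested. Given as the teratoma difference minus the embryoid body difference on the log2 scale, Col4a5 stood at 2.02 and Col2a1 at -1.81. Col18a1 stood at -1.42 and Col7a1 at -1.24. The others were smaller, with Col15a1 at -0.79, Col23a1 at -0.71, Col13a1 at -0.57 and Col26a1 at -0.34. For Col4a5, Col2a1 and Col18a1 1 of the 2 differences was at least 2-fold, and for the rest neither was. For Col15a1 the embryoid body difference was 0.003, and for Col23a1 the teratoma difference was -0.01.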

How the results depend on the processing

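The counts of chains at least 2-fold lower in embryoid bodies (11) and teratomas (8) stayed within 1.5 times under every probe set, floor and scaling alternative run, at 8 to 11 and 8 to 9. With a threshold of 4-fold they were 6 and 0, and with 1.5-fold the teratoma count was 16. The count higher in embryoid bodies (1) was 0 without shared-sequence probe sets, where Col2a1 has no reading, 2 with no floor, 4 at 1.5-fold and 0 at 4-fold. In control cells the count lower in teratomas (0) was 2 with the mean of probe sets, 4 at 1.5-fold and 4 after centring on array medians. In knockout cells it (4) was 1 at 4-fold. No single chain that was 2-fold apart in a knockout comparison changed sign, and single chains were not rerun for the comparisons of tissues. Of the alternative values of single chains in embryoid bodies, 183 stayed on their side of 2-fold and 4 left it, 3 of these as bounds under a higher floor, and in teratomas 206 stayed, 3 left it and 6 entered it, among them Col3a1 at -1.10 with the mean of probe sets. Col14a1 in teratomas was -0.50 with that mean and at least -0.49 without shared-sequence probe sets, and Col18a1 was -0.82 with the mean. No paired analysis was possible because each group has 1 array. Chains near or below the floor, such as Col5a3, Col6a4 and Col15a1 in embryoid bodies, are limited by signal over background.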
